A study of Mus musculus with 12 samples.

Results

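Kidneys of FXR knockout mice were compared with kidneys of wild-type mice on vehicle, by total RNA sequencing. The comparison uses 6 of the 12 libraries of the series, 3 from each genotype. Genes were kept where at least 3 of these 6 libraries reached 1 TPM (a level scaled by gene length and library total), which left 14130 of 24532 gene identifiers. Wild-type mice carry the strain label C57BL/6, and knockout mice the label Nr1h4tm1Gonz/J, a germline targeted allele of Nr1h4. All 12 libraries come from mice fasted overnight. The 6 libraries used first come from mice given vehicle, and the other 6 from mice of the same 2 genotypes given the FXR agonist GW4064 with a time label of 6 h. The labels give no age, no time of day at collection and no statement of littermates, so genotype, strain or colony and time of day cannot be told apart. They also do not state that libraries of a group are separate animals, and p-values therefore measure the spread between these samples.

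FXR, the farnesoid X receptor encoded by Nr1h4, is a nuclear receptor that binds bile acids and pairs with the retinoid X receptor to switch genes of bile acid, lipid and glucose metabolism. The kidney is among the organs that express it most, chiefly in the tubules. PPAR-alpha, a related receptor activated by fatty acids during fasting, drives fatty acid oxidation genes in the same proximal tubule cells, and both receptors bind variants of one hexamer motif.

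Mapped sequence came to 2.86, 3.34 and 3.32 gigabases in the wild-type group on vehicle, against 3.46, 4.06 and 4.27 gigabases in the knockout group, so the knockout group was the deeper one. Correlations of log2 values ran from 0.9855 to 0.9888 within the vehicle groups and from 0.978 to 0.9825 between them. Kidney markers were abundant, as proximal tubule genes summed to between 81089 and 83178 TPM in the wild-type and between 84408 and 97668 TPM in the knockout libraries, and thick ascending limb genes to between 7534 and 7645 TPM in the wild type and between 7281 and 7427 TPM in the knockout. The Y-linked gene Ddx3y lay between 67.0 and 79.0 TPM in all 12 libraries, so no library stood apart in sex-linked expression. Averaged on the log2 scale, 4 adipocyte genes (the fat score) stood at 2.16, 1.99 and 2.30 in the wild-type and 1.83, 0.24 and 2.43 in the knockout vehicle libraries, of these lowest in knockout replicate 2. In the GW4064 libraries the score was -0.26, 2.70 and 0.52 in the wild type and 2.49, 1.07 and 2.44 in the knockout. Wild-type GW4064 replicate 1 was the lowest of all 12.

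The targeted gene was reduced by about the same amount in every knockout library and was not absent. Nr1h4 (chr10:89454234-89533622, mm10, minus strand) stood at 217, 267 and 249 TPM in the wild-type and 119.9, 116 and 113 TPM in the knockout libraries. The groups did not overlap, and the knockout libraries lay closer together than the wild-type ones. Subtracting the wild type from the knockout gave a log2 difference of -1.06 ± 0.11 (SE, limma, adjusted p = 0.00018), and all differences below have this sign convention. These values cover the whole gene and do not locate the targeted exons, so they check the labels by a difference in level and not by loss of a named exon.

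**Figure D1:**
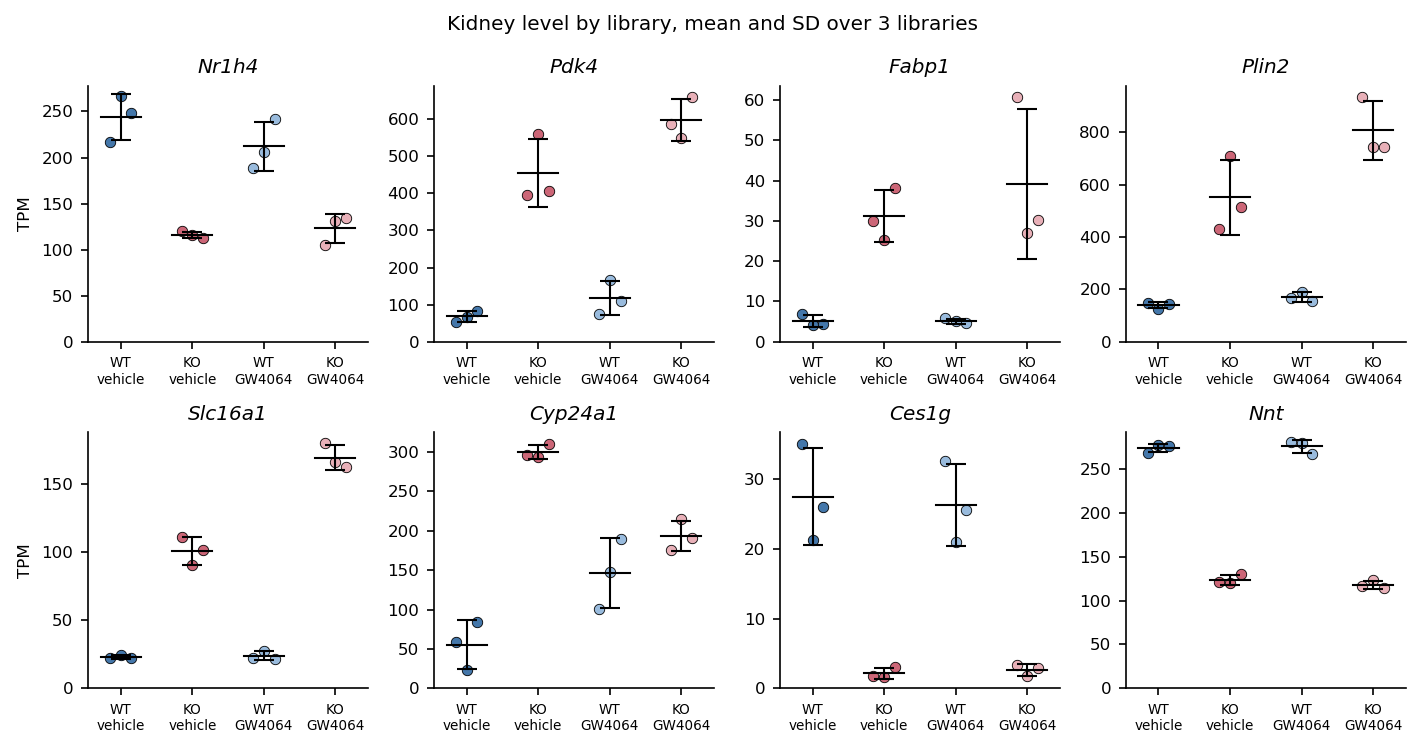
TPM (vertical axis, from 0) of 8 genes in the 4 groups of 3 libraries; points are libraries, long bars are means and capped bars are SD. Nr1h4, Ces1g and Nnt are lower in every knockout library, and Pdk4, Fabp1, Plin2 and Slc16a1 are higher in every knockout library than in any wild-type library, whereas the Cyp24a1 groups lie close together under GW4064.

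Of the 14130 genes, 1902 differed between the genotypes (limma on log2(TPM + 0.5), Benjamini-Hochberg adjusted p under 0.05), which is 13.5% of those tested. A larger share was lower in the knockout (1438 genes, 10.2%) than higher (464 genes, 3.28%). That split depended on the scaling. The median log2 difference over all genes was -0.09 with TPM and -0.0041 after median-of-ratios scaling, which called 846 genes higher and 562 lower, and quantile scaling called 681 and 601. Differences of at least 2-fold were balanced and depended less on it, with 62 genes higher (0.439%) and 60 lower (0.425%), and 120 in all after median-of-ratios scaling. The number of calls fell to 934 without wild-type replicate 3, 977 without wild-type replicate 1, 1150 without knockout replicate 2 and 1169 without knockout replicate 1. Counts of list members called are to be read against these shares, 3.28% higher and 10.2% lower. Genes named for the largest differences were picked only where the groups did not overlap, so lack of overlap is no added support for them.

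Fatty acid oxidation genes rose together in the knockout. The list written for it holds enzymes, carriers and known targets of PPAR-alpha, and of 49 members tested 30 were higher, 1 was lower and 18 did not pass, against 3.28% of all genes called higher. The median log2 difference was 0.26, beside -0.09 over all genes, and after median-of-ratios scaling 34 members were higher and 1 lower. Leaving out 1 library gave between 24 and 31 higher members.

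Fabp1 and Plin2, a fatty acid carrier and a lipid droplet coat protein, are among the members with the largest differences. The 250 bases before their RefSeq start sites (GRCm38.p6) are shown because PPAR-alpha and HNF4A, another nuclear receptor of proximal tubule cells, bind repeats of AGGTCA with 1 base between them. Capitals mark the best match to AGGTCANAGGTCA on either strand, with 1 mismatch in Fabp1 (chr6:71199629-71199878, plus strand, first base 67 bases before the start) and 2 mismatches in Plin2 (chr4:86670060-86670309, minus strand, 225 bases before the start).
Fabp1: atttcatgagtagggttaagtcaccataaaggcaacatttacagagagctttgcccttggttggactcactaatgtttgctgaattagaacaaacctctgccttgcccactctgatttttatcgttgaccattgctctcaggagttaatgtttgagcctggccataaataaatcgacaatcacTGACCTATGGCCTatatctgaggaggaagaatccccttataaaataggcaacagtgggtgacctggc
Plin2: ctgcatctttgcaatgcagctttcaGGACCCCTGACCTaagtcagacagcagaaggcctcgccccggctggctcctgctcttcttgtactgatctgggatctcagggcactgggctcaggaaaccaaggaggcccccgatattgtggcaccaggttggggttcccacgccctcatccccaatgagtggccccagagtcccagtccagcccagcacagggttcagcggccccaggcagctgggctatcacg

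A match is a description of letters and not evidence of a site. These promoters were taken from named genes that hold a match, not by size of difference alone. Pdk4, Plin5, Acsl1 and Ehhadh gave no match with up to 2 mismatches or had no promoter sequence. RefSeq promoters of 300 bases (250 before and 50 after the start) were found for 10876 of the 14130 genes. The repeat with at most 1 mismatch was in 0.552% of all genes' promoters, in 2 of 359 genes called higher (0.557%) and in 2 of 42 fatty acid oxidation genes (4.76%). With 2 mismatches allowed, a setting chosen after seeing the data, the shares were 3.71% of all genes, 6.41% of genes called higher and 19% of the fatty acid oxidation genes (8 of 42). The single hexamer AGGTCA was in 15.2% of all promoters, in 16 of 44 promoters of genes at least 2-fold higher (36.4%), in 11 of 36 of those at least 2-fold lower (30.6%) and in 13 of 42 fatty acid oxidation genes (31%). Both directions of 2-fold difference thus held the hexamer at a similar share.

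Pdk4 had the largest difference of this list. It encodes a kinase that switches off pyruvate dehydrogenase and so spares glucose during fasting, and it lies at chr6:5483351-5496278. It stood at 54.7, 66.8 and 83.6 TPM in the wild-type and 396, 560.3 and 408 TPM in the knockout libraries. The lowest knockout library was far above the highest wild-type library, with a log2 difference of 2.73 ± 0.24 (limma, adjusted p = 7.0e-05). Of the other kinases of the complex, Pdk1 measured 46.3 to 48.6 TPM in the wild-type and 38.8 to 40.99 TPM in the knockout libraries, and Pdk3 67.01 to 77.4 TPM in the wild type and 78.7 to 88.001 TPM in the knockout. Pdk1 differed by -0.25 ± 0.06 (limma, adjusted p = 0.021), a call that ended on leaving out wild-type replicates 1 or 3 or knockout replicates 1 or 2 and with median-of-ratios scaling and with quantile scaling (limma, adjusted p up to 0.086). Pdk3 differed by 0.21 ± 0.06 (limma, adjusted p = 0.049) and lost its call under most alternatives tried, without every vehicle library but wild-type replicate 1 among them (limma, adjusted p up to 0.16). Pdk2 measured 97.03 to 103.8 TPM in the wild-type and 68.6 to 95.9 TPM in the knockout libraries. It was not called (-0.28 ± 0.11, limma, adjusted p = 0.10).

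Fabp1 (chr6:71199888-71205023), which carries fatty acids and haem in liver and fasted kidney, stood at 6.78, 4.14 and 4.43 TPM in the wild-type and 29.9, 25.4 and 38.2 TPM in the knockout libraries. Every knockout library was above every wild-type library, as for 7.89% of all genes (27.2% had every knockout library lower), and the log2 difference was 2.51 ± 0.27 (limma, adjusted p = 0.00029). Plin2 (chr4:86656565-86670059) measured 147, 126 and 144 TPM in the wild type and 429, 710.3 and 516 TPM in the knockout. Its groups were also fully apart, at 1.95 ± 0.16 (limma, adjusted p = 3.8e-05), with knockout replicate 2 the highest. Plin5, which couples droplets to mitochondria, went from 8.34, 10.4 and 9.46 TPM in the wild type to 21.4, 30.1 and 22.1 TPM in the knockout, a difference of 1.33 ± 0.15. Angptl4, a secreted inhibitor of lipoprotein lipase, differed by 0.64 ± 0.10, from a range of 159 to 184 to one of 248 to 289.9 TPM.

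Enzymes of activation, peroxisomal oxidation and mitochondrial import rose. Acsl1, which activates long-chain fatty acids with coenzyme A, stood at 220.3, 263 and 251 TPM in the wild type and 572, 487 and 517 TPM in the knockout (1.10 ± 0.08, adjusted p = 3.0e-05, limma). Ehhadh, the bifunctional enzyme of peroxisomal oxidation, stood at 879, 899 and 932 TPM in the wild type and 1906, 2259 and 2084 TPM in the knockout (1.20 ± 0.09, adjusted p = 3.3e-05, limma). Neither gene had any overlap between the groups. Further members, outside the naming rule, were chosen from those called higher after their values were seen. Their direction is therefore no added support. The thioesterases Acot1 and Acot2 differed by 1.01 ± 0.13 and 1.07 ± 0.11, the peroxisome proliferation gene Pex11a by 0.72 ± 0.12 and the thioesterase Acot4 by 0.52 ± 0.08. The mitochondrial carnitine steps rose less, with Cpt2 at 0.43 ± 0.05 and Slc25a20 at 0.43 ± 0.06. Cpt1a, the regulated entry step, was at 0.21 ± 0.06 and lost its call on leaving out wild-type replicates 1, 2 or 3 or knockout replicate 2 and with the fat score as a covariate, without a variance trend, with only the 6 vehicle libraries and with quantile scaling (limma, adjusted p up to 0.095).

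Some members did not pass. Ppara itself, the receptor, stood at 107, 118 and 113 TPM in the wild-type and 104, 129 and 109 TPM in the knockout libraries, overlapping ranges with a log2 difference of 0.02 ± 0.08 (limma, adjusted p = 0.90). The fatty acid transporter Cd36 (0.12 ± 0.10) and the medium-chain dehydrogenase Acadm (0.16 ± 0.07) did not pass (limma, adjusted p = 0.43 and 0.15). Fabp3, the heart-type fatty acid carrier, was the member that fell. It went from 265, 258 and 238 TPM in the wild type to 178, 167 and 158 TPM in the knockout with no overlap, a difference of -0.60 ± 0.07 (limma, adjusted p = 0.00039), opposite in sign to Fabp1.

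**Figure D2:**
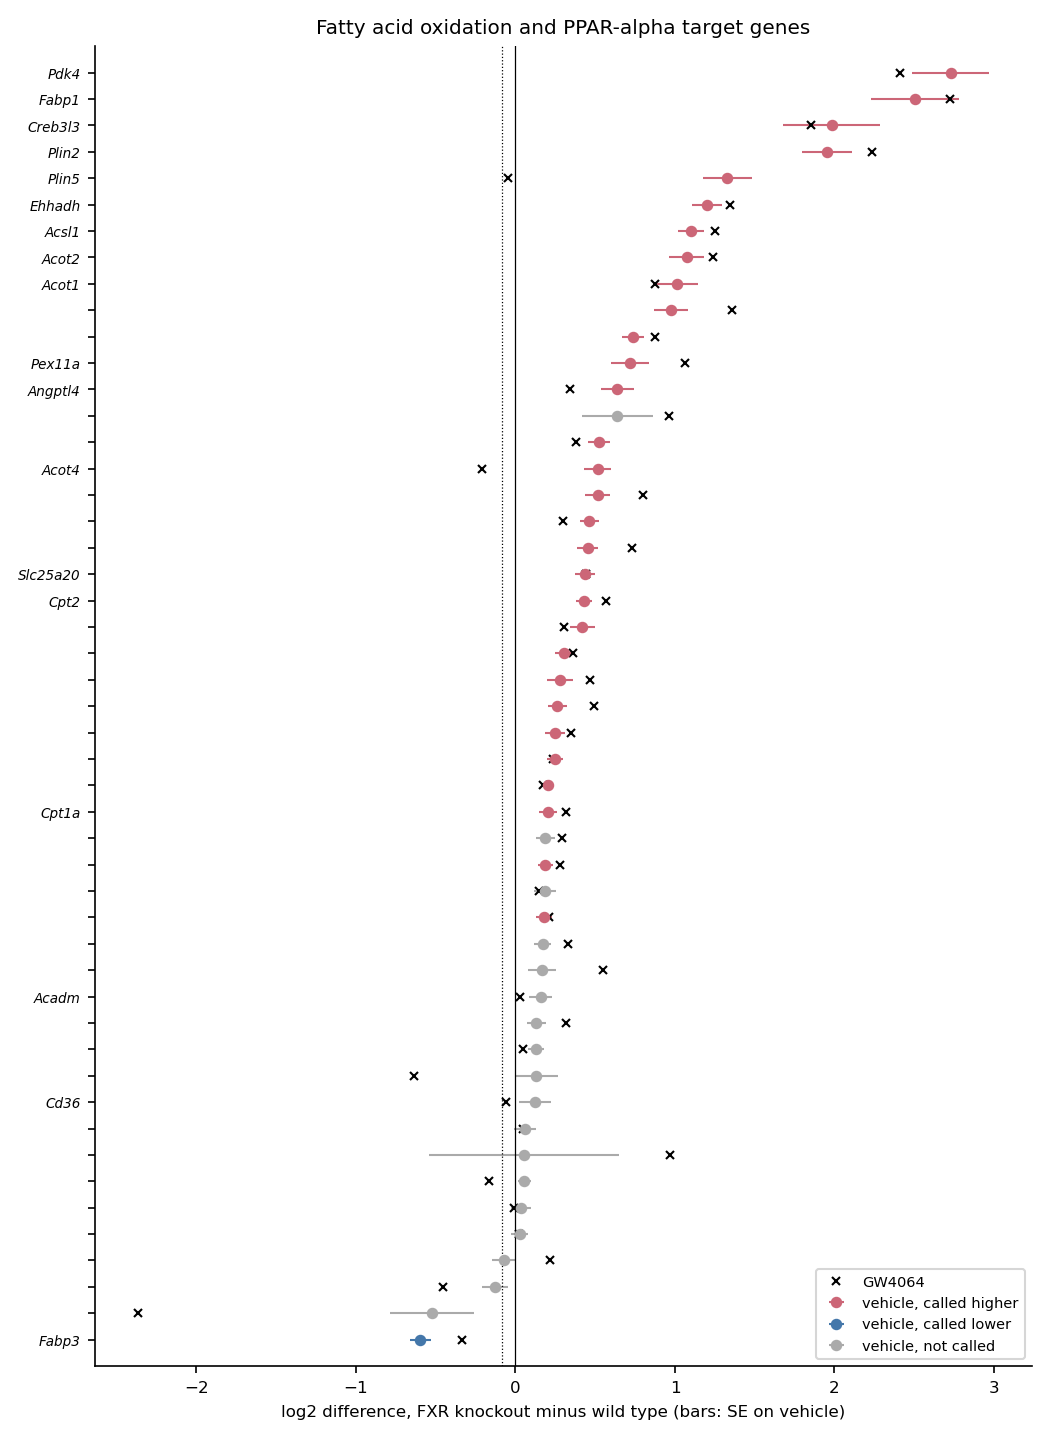
Log2 difference, knockout minus wild type, of the 49 fatty acid oxidation and PPAR-alpha target genes tested; circles with SE bars are vehicle (red called higher, blue called lower, grey not called), crosses are GW4064, the dotted line is the median of all genes on vehicle, and genes named in the text are labelled. Pdk4 and Fabp1 lead, Fabp3 is the member called lower, and Plin5 and Acot4 lie near 0 under GW4064.

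Cytochromes P450 of the Cyp4a family hydroxylate the end of fatty acids and are targets of PPAR-alpha. Of 11 genes of this family and its relatives, 5 rose and 0 fell, with a median log2 difference of 0.59. Cyp4a14 stood at 409, 451 and 428 TPM in the wild-type and 1129, 1567 and 1409 TPM in the knockout libraries, a difference of 1.66 ± 0.22 (limma, adjusted p = 0.00096). Cyp4a12a went from 8.95, 6.80 and 4.92 TPM in the wild type to 54.04, 39.96 and 35.8 TPM in the knockout (2.58 ± 0.23) and Cyp4a12b from 9.70, 9.61 and 7.38 TPM in the wild type to 35.8, 36.6 and 37.2 TPM in the knockout (1.99 ± 0.18). All knockout libraries exceeded all wild-type libraries for these genes. Cyp4a12a and Cyp4a12b are close copies, and reads can be split between them, so their single values are uncertain. Cyp4b1 rose by less (0.52 ± 0.09) from a high level of 1723 to 1876 TPM. Cyp4a10, the fifth, was at 0.61 ± 0.15 and lost its call on leaving out wild-type replicates 1, 2 or 3 or knockout replicates 2 or 3 (limma, adjusted p up to 0.079).

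Ketone handling did not move as one group. Of 12 genes, 3 rose and 2 fell, with a median of -0.01, and 5 were higher after median-of-ratios scaling. Slc16a1, the monocarboxylate transporter MCT1 that moves lactate and ketone bodies, stood at 22.2, 24.8 and 22.04 TPM in the wild-type and 111, 90.4 and 102 TPM in the knockout libraries (2.11 ± 0.10, adjusted p = 4.7e-07, limma). The lowest knockout library lay far above the highest wild-type library. Slc16a6, which exports ketone bodies, rose by 0.69 ± 0.13. Bdh1, which interconverts the main ketone bodies, fell by 0.36 on the log2 scale. Slc5a8, a sodium-coupled transporter that recovers lactate and ketone bodies from urine, fell from 360.5, 346 and 353 TPM in the wild type to 171, 163 and 155 TPM in the knockout (-1.11 ± 0.05, adjusted p = 3.4e-07, limma). Slc5a8 lies 0.52 megabases from Nr1h4, and its place is taken up below with other neighbours of the targeted gene.

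Lipid droplet and triglyceride genes gave 5 higher and 1 lower of 25, a median of 0.06. The lower count was 0 after median-of-ratios scaling and 0 on leaving out wild-type replicates 1, 2 or 3 or knockout replicates 1, 2 or 3. Besides Plin2, Plin5 and Angptl4, the higher ones were Mogat1, a monoacylglycerol acyltransferase (0.59 ± 0.06, from a range of 146 to 158 TPM to one of 221 to 243 TPM), and Gpam, the first acyltransferase of glycerolipid synthesis (0.33 ± 0.08), which lost its call on leaving out wild-type replicates 1 or 3 or knockout replicates 1 or 2 (limma, adjusted p up to 0.093). Mttp, the transfer protein that loads lipid onto apolipoprotein B, was outside the list and among the largest differences, at 18.5, 18.1 and 18.7 TPM in the wild type and 46.4, 48.4 and 51.5 TPM in the knockout (1.38 ± 0.09, adjusted p = 1.2e-05, limma). Apoh, beta-2-glycoprotein I, a plasma lipid-binding protein, rose from 1.77, 2.59 and 2.38 TPM in the wild type to 15.7, 14.7 and 12.1 TPM in the knockout (2.42 ± 0.33, adjusted p = 0.0010, limma). Both were named by a rule that required groups without overlap, and in both the 3 knockout libraries lay close together. Of 10 adipocyte markers 0 passed (limma, 3 at an unadjusted p under 0.05, as were 31% of all genes). Their median was -0.69, with 7 of 10 below 0, and they summed to between 245 and 254 TPM in the wild-type and between 217 and 282 TPM in the knockout libraries.

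Clock genes were among the largest differences in both directions. The molecular clock is a loop in which ARNTL (BMAL1) with CLOCK or NPAS2 activates Per, Cry and Nr1d genes through E-box motifs, and the Nr1d repressors in turn shut Arntl off. Of 17 core clock genes, 4 rose and 4 fell, and these counts were 6 and 4 after median-of-ratios scaling. Of the activators, Arntl and Npas2 were higher in the knockout. Arntl stood at 1.89, 3.36 and 2.26 TPM in the wild-type and 18.2, 11.6 and 15.1 TPM in the knockout libraries (2.37 ± 0.26, adjusted p = 0.00028, limma). Npas2 was at 0.337, 0.496 and 0.297 TPM in the wild type and 2.78, 1.84 and 2.63 TPM in the knockout (1.73 ± 0.25, adjusted p = 0.0017, limma), a low level in both groups. For Arntl, no knockout library came near the wild-type range. Npas2 passed the filter on low values only through the knockout libraries, so its groups could not overlap.

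Of the repressors, Nr1d1, Nr1d2, Ciart and Per3 were lower. Nr1d1 (REV-ERB alpha, chr11:98767932-98775377) stood at 18.7, 18.7 and 29.6 TPM in the wild-type and 1.70, 4.12 and 2.03 TPM in the knockout libraries, a difference of -2.92 ± 0.33 (limma, adjusted p = 0.00038). Ciart, a repressor of ARNTL activity, went from 9.39, 11.4 and 12.6 TPM in the wild type to 1.07, 1.61 and 1.47 TPM in the knockout (-2.63 ± 0.31, adjusted p = 0.00050, limma). Nr1d2 fell by 0.90 and Per3 by 1.18 on the log2 scale. The knockout replicates differed among themselves, with Nr1d1 highest in replicate 2, yet no knockout library reached the wild-type range. Cry1, a repressor that peaks late in the cycle, rose by 0.82 ± 0.13.

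The 250 bases before the start of Ciart (chr3:95882229-95882478, minus strand, RefSeq GRCm38.p6) are shown because they hold the E-box CACGTG 3 times, in capitals, beginning 116, 58 and 44 bases before the start.
Ciart: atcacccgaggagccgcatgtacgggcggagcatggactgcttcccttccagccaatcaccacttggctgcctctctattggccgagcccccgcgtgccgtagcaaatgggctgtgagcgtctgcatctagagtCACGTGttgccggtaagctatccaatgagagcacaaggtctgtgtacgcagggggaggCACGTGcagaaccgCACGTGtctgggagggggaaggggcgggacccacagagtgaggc

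CACGTG, which reads the same on both strands, was in 11.6% of all genes' promoters, in 4 of 13 core clock genes with a promoter (30.8%) and in 4 of 16 clock-output genes (25%). Among genes called lower it was in 11.7%, close to all genes.

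The period genes Per1 and Per2, which also repress ARNTL, did not pass. Per1 stood at 27.3, 33.8 and 25.1 TPM in the wild type and 21.8, 24.2 and 26.4 TPM in the knockout (-0.24 ± 0.14, adjusted p = 0.26, limma) and Per2 at 41.3, 40.3 and 32.3 TPM in the wild type and 34.2, 34.9 and 33.2 TPM in the knockout (-0.15 ± 0.19, adjusted p = 0.65, limma), both with overlapping ranges. Clock itself was at 0.16 ± 0.06 and passed only after median-of-ratios or quantile scaling.

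Output genes of the clock moved both ways. Of 18 rhythmic output genes, 2 rose and 5 fell. Dbp, an activator driven by E-boxes, went from 122, 86.5 and 132 TPM in the wild type to 14.5, 23.8 and 16.4 TPM in the knockout (-2.62 ± 0.26, adjusted p = 0.00016, limma), and its relatives Tef and Hlf fell by 0.80 and 0.61 on the log2 scale. Nfil3, the repressor that competes with them for the same sites, rose from 2.98, 4.15 and 2.69 TPM in the wild type to 12.8, 13.5 and 9.76 TPM in the knockout (1.74 ± 0.23, adjusted p = 0.00086, limma). For Dbp, Tef, Hlf and Nfil3 the groups did not overlap. Dbp, Tef and Hlf were also the 3 output genes called lower after median-of-ratios scaling, and the count of lower genes was 3 on leaving out wild-type replicates 1 or 2 or knockout replicates 1 or 3. Without a time of day in the labels, a difference in collection time and a genotype difference in the clock cannot be told apart, and the same holds for rhythmic genes elsewhere in the text.

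**Figure D3:**
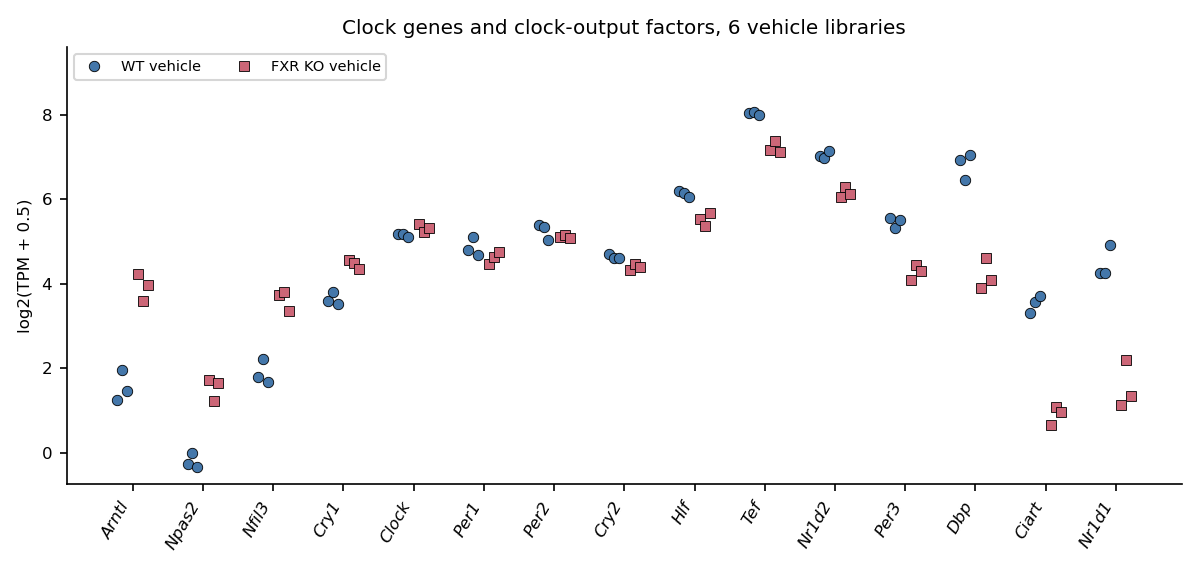
Level (log2(TPM + 0.5), vertical axis) of 15 clock and clock-output genes in the 3 wild-type (circles) and 3 knockout (squares) vehicle libraries. The groups are fully apart for genes at the left, higher in the knockout, and at the right, lower in the knockout, while Per1 and Per2 overlap. Npas2 passed the filter on low values only through the knockout libraries.

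Vitamin D, steroid and retinoid enzymes included several large differences. Of 30 such genes 5 rose and 1 fell, a median of 0.03, and the count of higher members was 8 after median-of-ratios scaling. The lower count was 3 on leaving out knockout replicate 3. Cyp24a1, the 24-hydroxylase that inactivates vitamin D, stood at 58.6, 22.96 and 84.5 TPM in the wild-type and 296, 294 and 310.3 TPM in the knockout libraries (2.62 ± 0.37, adjusted p = 0.0013, limma). Wild-type libraries ranged widely, while the 3 knockout libraries were nearly equal. Vdr, the vitamin D receptor that induces it, was at 129, 128 and 148 TPM in the wild type and 160.5, 211 and 189 TPM in the knockout (0.46 ± 0.11, adjusted p = 0.020, limma), and lost its call on leaving out wild-type replicates 1 or 2 or knockout replicate 2 (limma, adjusted p up to 0.070). Cyp27b1, which makes active vitamin D, overlapped between the groups at 10.4, 13.7 and 2.05 TPM in the wild type and 5.59, 3.04 and 7.45 TPM in the knockout (-0.40 ± 0.56, adjusted p = 0.66, limma).

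Cyp7b1, an oxysterol 7-alpha-hydroxylase, went from 96.1, 129.7 and 132 TPM in the wild type to 269, 349 and 223 TPM in the knockout (1.22 ± 0.17), and the retinal dehydrogenase Aldh1a1 from 7.45, 8.31 and 9.41 TPM in the wild type to 20.8, 21.3 and 22.3 TPM in the knockout (1.31 ± 0.15). Cyp26b1, which breaks down retinoic acid, rose by 0.92 ± 0.20. All 3 had groups fully apart (limma, adjusted p = 0.0014, 0.00039 and 0.014). Akr1c21, an abundant hydroxysteroid dehydrogenase of male kidney, fell from a range of 2654 to 2790.1 TPM to one of 1606 to 1881 TPM (-0.61 ± 0.06).

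Genes that respond to glucocorticoids, the hormones of fasting and of the daily rhythm, gave 5 higher and 2 lower of 26, with a median of 0.15. Sgk1, a kinase that raises sodium uptake, stood at 173, 169.6 and 116 TPM in the wild-type and 441, 431 and 515 TPM in the knockout libraries (1.61 ± 0.19, adjusted p = 0.00043, limma). Errfi1, a feedback inhibitor of the EGF receptor, rose by 0.82 ± 0.13, and the cell cycle inhibitor Cdkn1a went from 1.53, 2.23 and 1.88 TPM in the wild type to 5.66, 7.61 and 6.53 TPM in the knockout (1.58 ± 0.15). Pdk4 and Angptl4 are the other members that rose. Klf15 fell by 0.49 on the log2 scale and Bcl6 went from 38.8, 51.4 and 56.2 TPM in the wild type to 13.9, 14.7 and 18.3 TPM in the knockout (-1.60 ± 0.29, adjusted p = 0.0061, limma). Members therefore moved both ways, and Tsc22d3 and Per1, classical members, did not pass.

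Of 20 genes of growth hormone, prolactin and IGF signalling, 0 rose and 6 fell, beside 3.28% of all genes called higher and 10.2% called lower. The remaining 14 did not pass, and the lower count was 4 after median-of-ratios scaling. Prlr, the prolactin receptor, stood at 42.3, 55.3 and 81.6 TPM in the wild-type and 19.8, 8.87 and 20.9 TPM in the knockout libraries (-1.86 ± 0.39, adjusted p = 0.012, limma), with a call that ended on leaving out wild-type replicate 3 (limma, adjusted p = 0.051). Igf1 went from 9.36, 6.91 and 8.86 TPM in the wild type to 2.88, 1.83 and 4.10 TPM in the knockout (-1.41 ± 0.22, adjusted p = 0.0024, limma) and lies 1.52 megabases from Nr1h4. The binding protein gene Igfbp5 fell from a range of 178 to 212 to one of 92.2 to 125 TPM (-0.79 ± 0.10). Bcl6, a repressor downstream of growth hormone, is a further member, and its values are given above.

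Extracellular matrix genes fell together in the knockout. Of 53 collagen, laminin, proteoglycan and remodelling genes, 29 were lower, 1 was higher and 23 did not pass, against 10.2% of all genes called lower. The median was -0.44, beside -0.09 for all genes, and the lower count was 24 after median-of-ratios scaling. Leaving out 1 library gave 22 to 31.

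Col3a1 and Col1a1, which encode fibrillar collagens, and elastin fell by more than 2-fold. Col3a1 stood at 78.8, 58.3 and 67.2 TPM in the wild-type and 26.3, 22.5 and 34.004 TPM in the knockout libraries (-1.30 ± 0.21, adjusted p = 0.0031, limma), and Col1a1 at 33.1, 28.5 and 29.4 TPM in the wild type and 11.9, 10.005 and 16.98 TPM in the knockout (-1.23 ± 0.24, adjusted p = 0.0086, limma). Eln, the elastin gene, went from 9.64, 7.84 and 7.41 TPM in the wild type to 3.64, 3.15 and 3.38 TPM in the knockout (-1.17 ± 0.12, adjusted p = 0.00016, limma). The groups were fully apart in each, which the rule for naming the largest differences required. Basement membrane collagens followed at higher levels. Col4a1 and Col4a2 fell by 0.65 and 0.63, and Col4a5 of the glomerular membrane by 0.78, all on the log2 scale. Col8a1, a network collagen of vessel walls, was the member that rose (0.64 ± 0.14, adjusted p = 0.013, limma), with a call that ended on leaving out wild-type replicate 1 (limma, adjusted p = 0.050).

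Markers of several cell types were lower together with the matrix genes. Fibroblast, pericyte and smooth muscle markers summed to between 472 and 599.9 TPM in the wild-type and between 337 and 395 TPM in the knockout libraries, with 7 of 14 lower, 0 higher and a median of -0.43. The lower count was 4 on leaving out wild-type replicate 3. Podocyte markers summed to between 261 and 276 TPM in the wild type and between 200.3 and 217 TPM in the knockout, with 8 of 12 lower (5 after median-of-ratios scaling), and the count was 4 on leaving out wild-type replicate 1 and 5 on leaving out wild-type replicate 3 or knockout replicate 2. Podxl, a coat protein gene of podocytes, fell from a range of 107 to 110.2 TPM to one of 82.4 to 93.7 TPM (-0.28 ± 0.06). Endothelial markers summed to between 794 and 858 TPM in the wild type and between 704 and 750.2 TPM in the knockout, with 6 of 15 lower. That count was 3 after median-of-ratios scaling, and 2 on leaving out wild-type replicates 1 or 3 and 3 on leaving out knockout replicates 2 or 3. Emcn fell by 0.47 and Tek by 0.30 on the log2 scale. Principal cell markers of the collecting duct summed to between 711 and 764 TPM in the wild type and between 589 and 633 TPM in the knockout, ranges that did not overlap, with 2 of 12 called lower, 0 after median-of-ratios scaling and 0 on leaving out wild-type replicate 2 or knockout replicate 1 and 1 on leaving out wild-type replicate 3 or knockout replicate 2. Distal convoluted tubule markers summed to between 1451 and 1529 TPM in the wild type and between 1292 and 1396 TPM in the knockout, also without overlap. Of 9 such markers 1 was called lower, beside 10.2% of all genes. Their median was -0.12, beside -0.09 over all genes. After median-of-ratios scaling it was -0.04, beside -0.0041. All sums are on the TPM scale, on which 27.2% of all genes had every knockout library lower. Urothelial markers summed to between 41.04 and 45.8 TPM in the wild type and between 19.8 and 39.5 TPM in the knockout, and of 6 tested 0 passed (limma, 2 at an unadjusted p under 0.05). In bulk tissue, fewer cells of a type and less RNA per cell cannot be told apart, and the part of these cells in the matrix result was not tested. Pdgfra, a fibroblast receptor gene, differed by -0.67 ± 0.14. Of the lower fibroblast markers, 3 are the collagen genes Col1a1, Col1a2 and Col3a1, which the matrix list also holds.

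Most tested genes of MHC class II antigen presentation rose. Of 11 genes 7 were higher, beside 3.28% of all genes, and 1 was lower, with a median of 0.65. The higher count was 5 on leaving out wild-type replicates 2 or 3 or knockout replicate 3, and 6 on leaving out knockout replicates 1 or 2. H2-Ab1 stood at 70.1, 57.6 and 57.8 TPM in the wild-type and 102, 92.03 and 171 TPM in the knockout libraries (0.92 ± 0.19, adjusted p = 0.011, limma). Cd74, the invariant chain, stood at 132, 126 and 127 TPM in the wild type and 188, 183 and 328 TPM in the knockout (0.81 ± 0.18, adjusted p = 0.015, limma), and H2-Eb1 rose by 0.73 ± 0.15. Each knockout library was above each wild-type library, and knockout replicate 3 was the highest for H2-Ab1 and Cd74. Lgmn, a lysosomal protease abundant in the tubule, rose by 0.33 ± 0.07. The lysosomal thiol reductase Ifi30 was the member that fell (-0.31 ± 0.06).

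Macrophage and dendritic cell markers summed to between 167 and 191 TPM in the wild-type and between 219 and 235 TPM in the knockout libraries, with 4 of 17 higher, 0 lower and a median of 0.35. The higher members were C1qa (0.51 ± 0.13), C1qb (0.49 ± 0.13), Lyz2 (0.35 ± 0.08) and Mpeg1 (0.65 ± 0.15), genes of complement, lysozyme and a pore protein. This count was 0 on leaving out wild-type replicate 2, 1 on leaving out knockout replicates 2 or 3 and 2 on leaving out wild-type replicates 1 or 3. C1qa lost its call on leaving out wild-type replicates 1, 2 or 3 or knockout replicates 1, 2 or 3 and with the fat score as a covariate (limma, adjusted p up to 0.087), and C1qb on leaving out wild-type replicates 2 or 3 or knockout replicates 2 or 3 (limma, adjusted p up to 0.078). Lyz2 lost its call on leaving out wild-type replicates 1 or 2 or knockout replicates 2 or 3 (limma, adjusted p up to 0.059), and Mpeg1 on leaving out wild-type replicates 2 or 3 or knockout replicate 3 (limma, adjusted p up to 0.057). Their part in the MHC class II result was not tested. Of 19 MHC class I genes 1 rose, H2-T23 (0.30 ± 0.05), and 2 after median-of-ratios scaling. Of 43 interferon genes 3 fell, beside 10.2% of all genes. That count was 1 after median-of-ratios scaling, and 1 on leaving out wild-type replicates 2 or 3 or knockout replicate 2. Ifit3 was the lower member that passed under all alternatives, from 29.6, 27.7 and 30.5 TPM in the wild type to 10.1, 9.75 and 15.2 TPM in the knockout (-1.32 ± 0.17, adjusted p = 0.00079, limma). Jchain, a plasma cell gene, rose from 0.168, 0.459 and 0.509 TPM in the wild type to 3.99, 3.22 and 4.19 TPM in the knockout (2.31 ± 0.29, adjusted p = 0.00075, limma). It passed the filter on low values only through the knockout libraries.

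**Figure D4:**
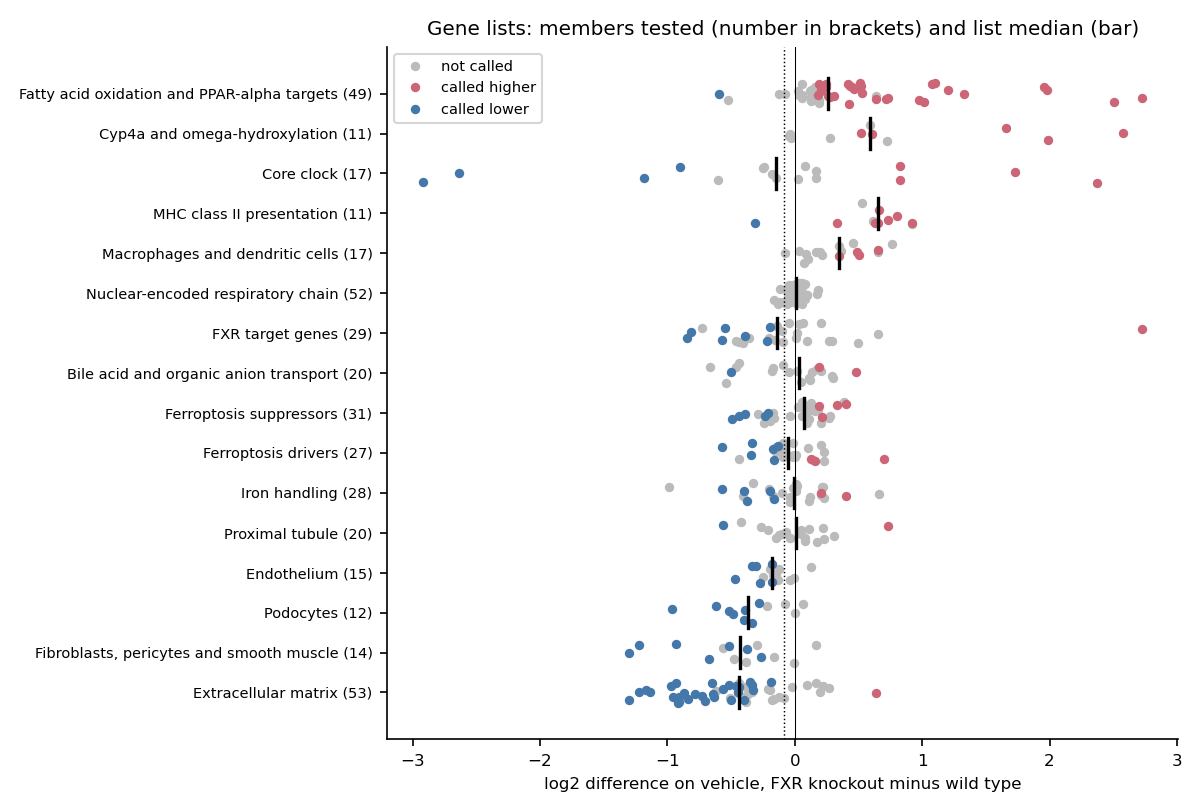
Log2 difference on vehicle of each tested member of 16 gene lists (points; red called higher, blue called lower, grey not called), with the list median as a bar and the median of all genes as a dotted line. Fatty acid oxidation and MHC class II members lie mostly to the right, matrix and fibroblast members to the left, and respiratory chain members around 0.

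Most classical FXR targets did not pass on vehicle. Of 29 tested, 1 rose (Pdk4) and 7 fell, a median of -0.14, while 13 more were under the filter on low values. None of the 7 was called lower after median-of-ratios or quantile scaling, and that count was 0 on leaving out wild-type replicate 2, 1 on leaving out wild-type replicate 3 or knockout replicate 1, 2 on leaving out wild-type replicate 1 or knockout replicate 2 and 3 on leaving out knockout replicate 3. Slc51a and Slc51b, the subunits of the basolateral bile acid exporter, are FXR targets in kidney. Slc51a stood at 48.1, 41.9 and 36.4 TPM in the wild type and 34.3, 41.5 and 46.5 TPM in the knockout, overlapping ranges with a difference of -0.05 ± 0.12 (limma, adjusted p = 0.82). Slc51b stood at 56.9, 45.9 and 44.9 TPM in the wild type and 60.6, 65.1 and 55.3 TPM in the knockout (0.30 ± 0.13, adjusted p = 0.14, limma). Nr0b2, the corepressor SHP, was near the filter at 2.65, 2.18 and 1.30 TPM in the wild type and 2.13, 2.38 and 3.01 TPM in the knockout (0.27 ± 0.21, adjusted p = 0.41, limma). On vehicle, neither exporter subunit nor Nr0b2 passed the test, and the groups overlapped for all 3 genes.

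Of 20 bile acid and organic anion transporters 17 did not pass. Abcg2, the urate and xenobiotic exporter, rose from 511, 508 and 515 TPM in the wild type to 599, 564 and 588 TPM in the knockout (0.19 ± 0.04, adjusted p = 0.010, limma). Slco1a6, a proximal tubule organic anion transporter, rose by 0.48 ± 0.11 and lost its call on leaving out knockout replicate 1 (limma, adjusted p = 0.059). Among 21 nuclear receptors and partners, 2 rose and 4 fell, Nr1h4 included. The higher count was 1 on leaving out wild-type replicates 1 or 2 or knockout replicate 2, and the lower count 2 after median-of-ratios scaling and 2 on leaving out wild-type replicate 1 or knockout replicate 2. Esrrg, an estrogen-related receptor of oxidative metabolism, fell from 68.1, 61.9 and 67.2 TPM in the wild type to 50.3, 48.9 and 55.3 TPM in the knockout (-0.35 ± 0.06, adjusted p = 0.0037, limma). Nr1i2, the xenobiotic receptor PXR, rose from 7.90, 8.01 and 7.84 TPM in the wild type to 11.6, 14.5 and 11.9 TPM in the knockout (0.64 ± 0.13, adjusted p = 0.0092, limma). These 2 kept their calls under all alternatives tried.

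The series title concerns ferroptosis, an iron-dependent cell death by lipid peroxidation. Its genes moved both ways. Of 31 suppressors 4 rose and 5 fell, and of 27 drivers 3 rose and 6 fell, beside 3.28% of all genes called higher and 10.2% called lower. After median-of-ratios scaling 7 suppressors were higher and 1 lower, and 4 drivers higher and 2 lower, so the balance of direction changed with the scaling. The higher count was 2 on leaving out wild-type replicates 1 or 2 or knockout replicate 2 for suppressors, and 1 on leaving out wild-type replicates 1 or 3 or knockout replicate 3 for drivers. The suppressor count that fell was 1 on leaving out wild-type replicates 1 or 3, 2 on leaving out knockout replicate 1 and 3 on leaving out knockout replicate 2, and the driver count that fell was 3 on leaving out wild-type replicates 1 or 3 or knockout replicate 3. The suppressor Gpx4, which reduces lipid peroxides, stood at 1296, 1216 and 1195 TPM in the wild type and 1294, 1319 and 1244 TPM in the knockout with overlap (0.06 ± 0.05, adjusted p = 0.42, limma). Aifm2, the coenzyme Q reductase FSP1, stood at 25.5, 23.5 and 22.7 TPM in the wild type and 23.6, 28.3 and 23.9 TPM in the knockout (0.07 ± 0.08, adjusted p = 0.56, limma).

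The driver gene Acsl4 activates polyunsaturated fatty acids with coenzyme A. It rose from 70.3, 67.7 and 66.9 TPM in the wild type to 96.1, 135 and 107 TPM in the knockout. Its groups were fully apart (0.70 ± 0.09, adjusted p = 0.00086, limma). The suppressor gene Txnrd1, thioredoxin reductase, rose by 0.33 ± 0.06. Tfrc, the transferrin receptor that brings iron into the cell, fell from 80.7, 75.3 and 68.8 TPM in the wild type to 52.1, 45.4 and 53.002 TPM in the knockout (-0.57 ± 0.11, adjusted p = 0.0061, limma), and Aco1, the iron-sensing regulator IRP1, by 0.38 on the log2 scale. Ftl1, ferritin light chain, was higher (0.41 ± 0.08, limma, adjusted p = 0.0078), a call lost with quantile scaling (limma, adjusted p = 0.15). Fth1, the heavy chain, overlapped between the groups (0.11 ± 0.08, adjusted p = 0.39, limma). Slc7a11, the cystine importer, was under the filter.

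NRF2 targets, the antioxidant response, gave 5 higher and 3 lower of 30, a median of 0.01. The higher count was 3 on leaving out wild-type replicates 1 or 2 or knockout replicates 2 or 3, and the lower count 1 on leaving out wild-type replicates 1, 2 or 3 or knockout replicate 1. Gsta4, a glutathione transferase for lipid aldehydes, went from 98.1, 99.97 and 78.7 TPM in the wild type to 180.5, 162 and 187 TPM in the knockout (0.94 ± 0.14, adjusted p = 0.0019, limma), and the peroxiredoxin repair gene Srxn1 rose by 0.39 ± 0.08. The lower members other than Ephx1 lost their calls with median-of-ratios scaling. Ephx1, microsomal epoxide hydrolase, was at -0.50 ± 0.11 and lost its call on leaving out wild-type replicate 3 (limma, adjusted p = 0.052). No nuclear-encoded respiratory chain gene passed on the TPM scale. Of 52 tested, 0 rose and 0 fell (limma), with 6 at an unadjusted p under 0.05 and a median of 0.01. After median-of-ratios scaling 9 were called higher.

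Nnt, the mitochondrial transhydrogenase that makes NADPH, was much lower in the knockout. It lies at chr13:119334317-119409257 and stood at 268, 277 and 276 TPM in the wild-type and 122, 119.6 and 130.3 TPM in the knockout libraries (-1.14 ± 0.04, adjusted p = 1.7e-07, limma). The groups were far apart and tight. As background, the C57BL/6J substrain is known to carry a deletion within Nnt that C57BL/6N lacks. The label C57BL/6 names no substrain, and strain and genotype cannot be told apart for this gene. Wdfy1, an endosomal protein gene chosen after its values were seen, had similarly tight groups at 73.4, 76.1 and 70.4 TPM in the wild type and 33.2, 32.97 and 32.4 TPM in the knockout (-1.14 ± 0.05, adjusted p = 4.7e-07, limma).

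Ces1g had the largest fall of all named genes. It encodes a carboxylesterase that hydrolyses triglycerides and esters, lies at chr8:93302369-93337209, and stood at 34.96, 21.3 and 26.03 TPM in the wild-type and 1.73, 1.69 and 3.05 TPM in the knockout libraries (-3.40 ± 0.26, adjusted p = 3.0e-05, limma). Of 9 carboxylesterases tested 7 did not pass. Ces2c rose (0.40 ± 0.09), a call lost on leaving out wild-type replicate 1 (limma, adjusted p = 0.053).

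Xenobiotic P450 enzymes of families 1 to 3 gave 3 higher and 1 lower of 18, and the lower count was 0 on leaving out wild-type replicate 1 and 2 on leaving out knockout replicate 3. Cyp2a4, a steroid 15-alpha-hydroxylase, rose from 101, 134 and 149 TPM in the wild type to 504, 510.4 and 519 TPM in the knockout (2.01 ± 0.15, adjusted p = 2.3e-05, limma). It has a near-identical copy, so its reads may be shared. Cyp2d12 rose from 27.3, 24.5 and 25.5 TPM in the wild type to 51.7, 85.1 and 75.2 TPM in the knockout (1.41 ± 0.28, adjusted p = 0.0091, limma). Cyp2e1 was at 0.73 ± 0.18 and lost its call on leaving out wild-type replicates 1 or 3 or knockout replicates 1 or 2 (limma, adjusted p up to 0.073). Cyp2c23, an arachidonate epoxygenase, fell (-0.77 ± 0.17), a call lost on leaving out wild-type replicate 1 (limma, adjusted p = 0.052). Conjugation enzymes gave 7 higher of 45, and that count was 4 on leaving out wild-type replicate 1. Gstt1 (0.48 ± 0.07) and Ugt1a7c (0.39 ± 0.07) rose and Nat2 fell by 0.63 on the log2 scale.

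Several of these genes differ by sex in mouse kidney, and they did not follow one pattern. Of 14 genes known to be higher in males, 4 rose (Cyp2e1, Cyp4b1, Cyp4a12a and Cyp7b1) and 1 fell (Akr1c21). Of 11 known to be higher in females, 2 rose (Cyp4a14 and Cyp2a4) and 2 fell (Prlr and Slc22a19). The lower count of the latter list was 0 on leaving out wild-type replicate 3 and 1 on leaving out wild-type replicates 1 or 2 or knockout replicates 1 or 3, and 1 after median-of-ratios scaling. Slc22a19 lost its call in 14 of 26 alternatives, each vehicle library left out but knockout replicate 2 among them (limma, adjusted p up to 0.12), and the call of Prlr ended on leaving out wild-type replicate 3 (limma, adjusted p = 0.051). For the genes higher in males the lower count was 2 on leaving out knockout replicate 2.

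Among other large differences, Dnase1, the secreted nuclease of kidney, fell from 1538, 1482 and 1399 TPM in the wild type to 717, 457 and 600.03 TPM in the knockout (-1.34 ± 0.27, adjusted p = 0.0099, limma). Upp2, a liver and kidney uridine phosphorylase, went from 55.1, 76.3 and 56.9 TPM in the wild type to 17.4, 32.4 and 9.12 TPM in the knockout (-1.81 ± 0.42, adjusted p = 0.017, limma), with a call that ended on leaving out wild-type replicate 2 (limma, adjusted p = 0.051). Mfsd2a, a transporter of lysophospholipids, went from 9.38, 36.4 and 35.7 TPM in the wild type to 3.53, 5.95 and 6.38 TPM in the knockout (-2.07 ± 0.44, adjusted p = 0.013, limma). Wild-type replicate 1 was the low library of Mfsd2a, and its call ended on leaving out wild-type replicate 3 (limma, adjusted p = 0.053). Nat8f1, an acetyltransferase of the secretory pathway, fell from a range of 364 to 375 TPM to one of 134 to 182 TPM (-1.18 ± 0.13). Cpe, a carboxypeptidase that trims peptide hormones, rose from 23.3, 19.8 and 25.2 TPM in the wild type to 60.2, 77.02 and 70.8 TPM in the knockout (1.59 ± 0.16, adjusted p = 0.00015, limma). Ypel2 (1.54 ± 0.09) and Tmem252 (1.49 ± 0.19) also rose, with knockout ranges of 34.7 to 37.5 and 195 to 265 TPM against 11.6 to 12.95 and 76.1 to 99.9 TPM.

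Stress genes moved in part. Of 24 genes of the ATF4 amino acid response, 6 rose and 2 fell, a median of 0.15. The lower count was 1 after median-of-ratios scaling and 1 on leaving out wild-type replicates 2 or 3 or knockout replicates 1, 2 or 3. Asns, asparagine synthetase, went from 3.43, 3.004 and 3.97 TPM in the wild type to 6.97, 6.56 and 9.70 TPM in the knockout (1.04 ± 0.22, adjusted p = 0.013, limma), Psat1 of serine synthesis from 53.98, 70.9 and 54.3 TPM in the wild type to 86.8, 143 and 105 TPM in the knockout (0.88 ± 0.15, adjusted p = 0.0040, limma), and Sesn2, an inhibitor of mTORC1, from a range of 39.7 to 45.4 TPM to one of 65.9 to 81.3 TPM (0.82 ± 0.10). Atf4 itself rose by 0.43 ± 0.09. Nupr1, a stress-induced chromatin protein, moved the other way, from 67.2, 38.7 and 50.4 TPM in the wild type to 22.1, 22.1 and 28.1 TPM in the knockout (-1.07 ± 0.20, adjusted p = 0.0063, limma). Tubule injury markers gave 2 higher (Cdkn1a and Myc) and 7 lower of 24, and the lower count was 2 after median-of-ratios scaling, and 1 on leaving out wild-type replicate 3, 2 on leaving out wild-type replicate 1 or knockout replicate 1, 3 on leaving out knockout replicate 2 and 4 on leaving out wild-type replicate 2. Havcr1 (KIM-1) was low and overlapped, at 1.997, 1.45 and 0.771 TPM in the wild type and 2.15, 3.13 and 1.59 TPM in the knockout (0.57 ± 0.36, adjusted p = 0.31, limma). Among immediate-early genes, Klf6 (0.61 ± 0.06), Klf2 (0.70 ± 0.12) and Myc (0.93 ± 0.19) rose under all alternatives tried.

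Transport of sugars and amino acids by the proximal tubule changed in single genes. Of 21 glucose and urate genes, 1 rose and 6 fell, Slc5a8 included. The higher count was 2 after median-of-ratios scaling and 2 on leaving out knockout replicate 2. Slc2a5, the fructose transporter, fell from 65.2, 57.5 and 61.8 TPM in the wild type to 39.7, 35.9 and 40.7 TPM in the knockout (-0.66 ± 0.12, adjusted p = 0.0059, limma), Khk, the fructokinase, by 0.38 and Slc5a1, the glucose transporter SGLT1, by 0.51 on the log2 scale. Slc17a1, a phosphate and urate transporter, rose by 0.28 ± 0.04. Of 30 amino acid transporters, 2 rose and 6 fell, or 5 and 3 after median-of-ratios scaling. The higher count was 0 on leaving out wild-type replicates 1 or 3 and 1 on leaving out knockout replicate 2, and the lower count 3 on leaving out wild-type replicates 2 or 3 or knockout replicate 1. Over all genes 3.28% were called higher and 10.2% lower. Slc7a13, a cystine and aspartate transporter of the late proximal tubule, fell from 891, 696 and 877 TPM in the wild type to 653, 522 and 495 TPM in the knockout (-0.56 ± 0.11, adjusted p = 0.0069, limma), and the peptide transporter Slc15a2 by 0.43. Hmgcs1 of cholesterol synthesis fell by 0.37 on the log2 scale and kept its call under all alternatives tried. Acss2, which activates acetate, fell by 0.38 on that scale.

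Genes near Nr1h4 were examined because a targeted allele brings along flanking chromosome of its source strain. Within 10 megabases on either side, 36 of 199 genes were called (18.1%), beside 1797 of 13442 on all other chromosomes (13.4%). After median-of-ratios scaling the shares were 11.6% and 9.89%. The shares called with differences of at least 2-fold were 3.52% (7 genes) and 0.833% (112 genes), both with and without that scaling. Within 20 megabases 59 of 292 genes were called (20.2%), and over the rest of chromosome 10 the share was 11.4%. By chromosome the share ran from 11.31% on X to 15.93% on chromosome 1, the Y with its 5 tested genes aside. No test was made of these shares.

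Gas2l3, which links actin to microtubules, lies next to Nr1h4 at chr10:89408823-89443967, 0.010 megabases away. It stood at 2.66, 2.25 and 2.32 TPM in the wild-type and 12.2, 14.6 and 14.3 TPM in the knockout libraries (2.29 ± 0.14, adjusted p = 8.5e-06, limma). Amdhd1, a histidine breakdown enzyme 3.99 megabases away, was at 2.33, 3.66 and 2.94 TPM in the wild-type and was listed at 0.125, 0 and 0.0895 TPM in the knockout libraries. Creb3l3, a transcription factor of fasting lipid metabolism, 8.36 megabases away, was at 0.398, 1.33 and 0.648 TPM in the wild type and 4.54, 2.95 and 6.20 TPM in the knockout (1.98 ± 0.30, adjusted p = 0.0022, limma). Cfap54, a cilium gene 3.24 megabases away, was at 0.791, 0.991 and 0.843 TPM in the wild type and 3.72, 3.34 and 3.89 TPM in the knockout (1.59 ± 0.14, adjusted p = 7.0e-05, limma). Amdhd1, Creb3l3 and Cfap54 were named after their values were seen. Amdhd1 passed the filter on low values only through the wild-type libraries, and Cfap54 only through the knockout libraries. With Slc5a8 and Igf1, neighbours thus moved in both directions. For such genes, effects of FXR and of linked strain sequence cannot be told apart. Creb3l3 is also counted in the fatty acid oxidation list and Cry1 (4.27 megabases) in the clock list. Txnrd1 (6.56 megabases) is counted among the ferroptosis suppressors and the NRF2 targets. Farther out, Gstt1 (13.7 megabases) and Gstt2 (13.6 megabases) are conjugation list members. Col6a1 (12.7 megabases) and Col6a2 (12.8 megabases) are matrix list members.

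The genotype difference was measured again in the 6 GW4064 libraries, none of which enters the vehicle values, though all 12 share the estimate of spread. There 2665 genes were called (18.9%), 1020 higher (7.22%) and 1645 lower (11.6%). Of the 464 genes higher on vehicle, 410 had a difference of the same sign and 289 were also called higher. Of the 1438 lower on vehicle, 1200 had the same sign and 573 were also called lower. Over all 14130 genes 64.8% had the same sign and 6.10% were called the same way in both treatments. Among differences of at least 2-fold on vehicle, 57 of 62 higher and 47 of 60 lower genes had the same sign, and 44 and 35 were called. Of all 464 higher and 1438 lower genes, 14 and 18 were called in the opposite direction under GW4064. Among those of at least 2-fold, these counts were 0 and 0.

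Leading genes were measured in all 4 groups. Pdk4 stood at 76.2, 167 and 109 TPM in wild-type and 586, 548 and 659 TPM in knockout GW4064 libraries (2.41 ± 0.24, limma, adjusted p = 4.6e-05). Fabp1 stood at 5.80, 5.05 and 4.58 TPM in wild-type and 60.6, 26.9 and 30.2 TPM in knockout libraries (2.73 ± 0.27) and Ces1g at 32.5, 20.9 and 25.5 TPM in wild-type and 3.35, 1.71 and 2.84 TPM in knockout libraries (-3.11 ± 0.26). Every knockout library was again on the same side. Nnt gave -1.22 ± 0.04, Dbp -2.89 ± 0.26 and Arntl 2.55 ± 0.26, each with the sign seen on vehicle. Of the fatty acid oxidation list 33 members were higher and 5 lower under GW4064, and of the matrix list 4 and 22. Cell type results repeated only in part. Podocyte markers gave 0 higher and 5 lower, fibroblast markers 0 and 4, endothelial markers 3 and 2 and principal cell markers 2 and 1. Endothelial sums overlapped, at 752 to 789 TPM in wild type and 750 to 783 TPM in knockout. Macrophage sums also overlapped, at 178 to 192 and 183 to 235 TPM. Urothelial sums were higher in the knockout, at 23.9 to 59.7 TPM against 20.9 to 23.2 TPM. Tubule injury markers gave 5 higher and 2 lower.

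The difference itself changed with treatment for 460 of 14130 genes (interaction, limma, 3.26%), of which 54 were among those higher and 128 among those lower on vehicle. The vehicle libraries enter the interaction too. These overlaps, and interactions of genes picked for their vehicle difference, are therefore not independent of the vehicle calls. Cyp24a1 is one, as wild-type GW4064 libraries reached 101, 147 and 189.6 TPM and knockout ones 176, 214 and 190.2 TPM, a difference of 0.45 ± 0.37 in place of 2.62 ± 0.37 (interaction -2.17 ± 0.52, limma, adjusted p = 0.045), though this interaction lost its call in 14 of 25 alternatives. Plin5 was at 23.3, 34.5 and 25.7 TPM in wild-type and 24.997, 26.4 and 28.5 TPM in knockout libraries under GW4064, with no difference called (-0.05 ± 0.15). Its interaction was -1.37 ± 0.22 (limma, adjusted p = 0.0066). Sgk1 likewise was not called under GW4064 (0.31 ± 0.19), with an interaction that lost its call with the fat score and on leaving out wild-type GW4064 replicate 1 or knockout vehicle replicates 1 or 3 (limma, adjusted p up to 0.080), and Nr1i2 turned from higher to lower in the knockout (-0.83 ± 0.13). Cyp26b1 and Slc16a1 had larger differences under GW4064, 3.27 ± 0.20 and 2.81 ± 0.10, than on vehicle, and the interaction of Slc16a1 lost its call with the fat score and on leaving out wild-type GW4064 replicate 1 (limma, adjusted p up to 0.058). Slc51a and Slc51b, neither called on vehicle, were at 514, 427 and 431 and 382, 349.5 and 303 TPM in wild-type GW4064 libraries and at 28.6, 33.2 and 30.1 and 45.4, 61.3 and 45.99 TPM in knockout ones.

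**Figure D5:**
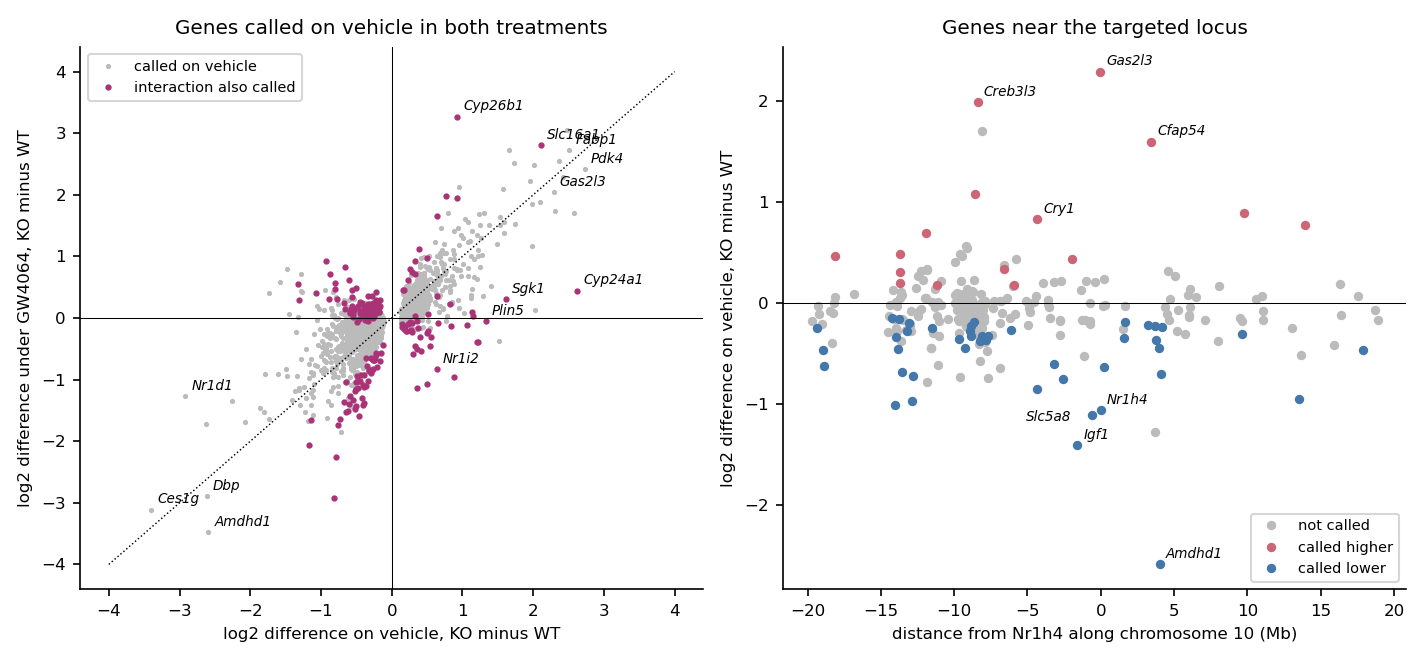
Left: log2 difference, knockout minus wild type, on vehicle (horizontal) and under GW4064 (vertical) for the 1902 genes called on vehicle, in purple where the interaction was also called, with the diagonal dotted. Right: log2 difference on vehicle against distance from Nr1h4 along chromosome 10 (Mb) for genes within 20 Mb; most genes lie near 0, while Gas2l3, Cfap54 and Creb3l3 lie above and Amdhd1, Igf1 and Slc5a8 below.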

How the data were processed

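Total RNA of 12 kidney samples was sequenced after ribosomal RNA depletion with a stranded kit, per the labels' protocols. The submitters' processing notes name HISAT2, StringTie, Cufflinks and the mouse build mm10, without versions. The authors deposited 1 gene table per library with TPM, FPKM and mean coverage (signal) values, per the file headers. The highest ratio of coverage to FPKM over genes above 1 FPKM was taken as the mapped gigabases of a library. TPM rows of 1 Entrez Gene identifier were summed (113 to 142 identifiers per library had several rows), and 24462 of 24532 identifiers had a symbol. No reads were counted again, TPM carry no count model, and no mitochondrial rows were present.

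Values were analysed as log2(TPM + 0.5) with limma 3.58.1 (R 4.3.3), 4 groups of 3 libraries sharing 1 estimate of spread with a variance trend, and p-values were adjusted over 14130 genes by Benjamini-Hochberg. A fold change on that scale understates the change of low genes. Other steps used Python 3.11.15, numpy 2.4.6, pandas 2.3.3, scipy 1.17.1 and matplotlib 3.10.9. The share of false calls among the genes called in these libraries was not tested. Deviations from group means of vehicle libraries with the same replicate number correlated at -0.0194, 0.036 and 0.0077, so numbers were not taken as pairs. The genes, lists and members were chosen with earlier results of these data known. Named genes are a fixed set, the 20 largest differences per direction (mean of at least 5 TPM, no overlap) and up to 4 members of lowest p per list and direction. Ppara, Cd36, Acadm, Per1, Per2, Clock, Cyp27b1, Cyp4a10 and the genes so described in the text were added after their values were seen. Alternatives covered the pseudocount, low-value filters, scaling, FPKM, the libraries fitted, variance settings, the replicate block, a fat score covariate, protein-coding genes only and each library left out. Sequences come from RefSeq tables. Some genes are not reported here.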

Additional observations from a re-analysis of the deposited data

Results flagged for a closer look

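For the genes below, the knockout minus wild-type difference under GW4064 differed from that on vehicle (interaction, limma, adjusted p under 0.05). Values are the log2 difference under GW4064 minus that on vehicle, and a negative value means that the knockout stood lower, relative to the wild type, under GW4064 than on vehicle. The exporter subunits had the lowest values, -3.83 ± 0.17 for Slc51a and -3.05 ± 0.18 for Slc51b, with adjusted p = 1.3e-06 and 9.6e-06 (limma). Cyp24a1 was at -2.17 ± 0.52, Nr1i2 at -1.47 ± 0.18, Plin5 at -1.37 ± 0.22 and Sgk1 at -1.30 ± 0.26, all genes higher in the knockout on vehicle. Acot4 was at -0.72 ± 0.12, Aifm2 at -0.76 ± 0.11, Nat8f1 at -0.89 ± 0.18, Wdfy1 at -0.50 ± 0.08, Slc5a1 at -0.53 ± 0.08 and Hmgcs1 at -0.28 ± 0.06.

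Positive values were led by Cyp26b1, the retinoic acid hydroxylase, at 2.35 ± 0.29, with 0.936, 1.72 and 1.44 TPM in the wild-type and 21.6, 12.7 and 18.5 TPM in the knockout GW4064 libraries. Nupr1 was at 1.48 ± 0.28, Col8a1 at 1.01 ± 0.19 and Pdgfra at 0.92 ± 0.19. Slc2a5 and Khk, the fructose transporter and kinase, were at 0.81 ± 0.17 and 0.46 ± 0.07. The antioxidant genes Srxn1, Txnrd1 and Ephx1 were at 0.72 ± 0.11, 0.38 ± 0.09 and 0.66 ± 0.15, and Slc16a1 at 0.70 ± 0.14.

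Over 25 alternatives, including each of the 12 libraries left out, the interaction kept its call for Acot4, Aifm2, Cyp26b1, Khk, Nr1i2, Plin5, Slc51a, Slc51b, Slc5a1, Srxn1 and Wdfy1. The others lost it in some, and the count of such alternatives and the highest adjusted p (limma) were 1 and 0.060 for Col8a1, 14 and 0.098 for Cyp24a1, 10 and 0.11 for Ephx1, 8 and 0.10 for Hmgcs1, 6 and 0.075 for Nat8f1, 2 and 0.062 for Nupr1, 8 and 0.079 for Pdgfra, 4 and 0.080 for Sgk1, 2 and 0.058 for Slc16a1, 6 and 0.095 for Slc2a5 and 15 and 0.13 for Txnrd1. Leaving out wild-type GW4064 replicate 1, the library with the lowest fat score, ended each of these but Col8a1, whose call ended with the fat score.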

How the results depend on the processing

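With 26 alternatives for the vehicle comparison, leaving out 1 library moved several counts by over 1.5 times. Called genes ranged from 934 to 1931 on vehicle (lowest without wild-type replicate 3), from 1723 to 2755 under GW4064 (lowest without wild-type GW4064 replicate 1) and from 217 to 537 for the interaction, which was 204 with the fat score as a covariate. Calls over the gene lists ranged from 175 to 279 and calls within 10 megabases of Nr1h4 from 18 to 37, with 23 after median-of-ratios scaling. The direct repeat was in 0% of genes called higher with 0 mismatches and in 6.41% with 2. With the replicate block the vehicle comparison called 1806 genes, GW4064 2639 and the interaction 455, and among the named genes it ended the calls of Pdk3 and Slc22a19. No called gene named in the text changed sign under any alternative. Some that were not called did. Ppara reached -0.00613 with array weights and -0.0165 with the fat score, and ranged from -0.0730 to 0.0793 with 1 library left out. Slc51a was at 0.0368 with median-of-ratios and 0.0215 with quantile scaling, and ranged from -0.148 to 0.0694. Quantile scaling put Fth1 at -0.0101 and Gpx4 at -0.0639. Leaving out 1 library gave ranges of -0.00802 to 0.121 for Aifm2, -0.00764 to 0.194 for Cd36 and -1.17 to 0.0738 for Cyp27b1. Depth is known only as mapped gigabases, so no counting interval could be given for single genes, and the number of reads behind low genes such as Npas2, Apoh and Jchain is not known.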
